A study of Mus musculus with 12 samples.

Results

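The proteasome genes were followed in mouse CD4 T cells sorted after different numbers of divisions. The members were the array probes whose annotated symbol begins with Psma, Psmb, Psmc, Psmd, Psme, Psmf or Psmg and a number, and which had a detection p-value under 0.05 on at least 3 of the 12 arrays. Of 86 such probes on the array, 68 were detected, out of 17829 detected probes in all, and 62 of the 68 were detected on 12 of 12 arrays. They stood for 43 of 49 symbols, of which 41 name proteasome subunits, activators or assembly chaperones and 2 (Psmc3ip and Psme3ip1) name other proteins. Psma1, Psma3, Psma6, Psmb11, Psmd3 and Psmg4 had no detected probe and have no level here.

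The proteasome degrades proteins that carry ubiquitin chains. Its core is a barrel of alpha-subunit rings, which gate the entrance, and beta-subunit rings, which hold the proteolytic sites. A regulatory cap unfolds the substrate: its base holds a ring of ATPases, and its lid removes the ubiquitin. In lymphocytes and in cells exposed to interferon gamma, the catalytic subunits Psmb5, Psmb6 and Psmb7 can be replaced during assembly by Psmb8, Psmb9 and Psmb10, which gives the immunoproteasome. This form is known for cutting peptides suited to MHC class I molecules. Alternative activators, encoded by Psme genes, can take the place of the cap.

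The study compared effector cells of different memory potential. All 12 samples came from DO11.10 naive CD4 T cells, which carry a transgenic receptor for an ovalbumin (OVA) peptide. The cells were stained with CFSE, a dye diluted at every division, and given to BALB/c hosts, which then received the peptide in CFA, an oil adjuvant with killed mycobacteria. Lymph nodes were taken at 66 to 72 h and sorted into D3, D4, D6 and D8, described in the labels as effectors that had divided 2, 3, 5 and 7 times, with 3 arrays each from 3 independent experiments. The design text describes D4 as passing readily into memory and the others as doing so less. The hosts kept their own lymphocytes, the number of animals behind a sample was not given in the sources used here, and the labels name no gate on the transferred receptor.

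Array values are listed in the order of experiments 1, 2 and 3 within each division, and an array is numbered by its experiment. Arrays detected 15563 to 16666 probes each, with median raw intensities of 41.6 to 51.2, and the median log2 intensity of the proteasome genes was 10.3 to 10.7 per array. Of the 6 T cell marker genes on the array, 5 were detected (Cd5 was not), and their summed linear intensity was 35220 to 36210 in D8, against 43599 to 45242 in D3. By limma, 2 of the 5 were called lower in D8 than in D3, beside 18.1% of all genes with a detected probe. They were Cd3d (adjusted p = 0.013) and Cd3g (adjusted p = 0.022). Of the markers of other cells, 1 of 3 was detected for B cells (Cd79b, summed level 39.2 to 52.4 in D8 and 41.7 to 64.2 in D3), 1 of 5 for dendritic cells (29.3 to 35.0 in D8 and 31.8 to 40.2 in D3), and 2 of 5 for myeloid cells (85.3 to 142 in D8 and 56.4 to 102 in D3). Among the defining markers, Ms4a1, Itgax, Itgam and Cd14 had no detected probe. Cd8b1 was detected and Cd8a was not, with 2307 to 2858 in D8 and 2617 to 3864 in D3. The Cd4 probe was dimmer, with log2 means of 8.22 in D8 and 8.13 in D3, against 11.30 and 11.67 for Cd8b1. The reason was not tested. Klrd1, an NK receptor chain, summed to 93.0 to 168 in D8 and 38.3 to 55.0 in D3, while Ncr1 and Klrb1c were not detected. Klrd1 was called higher in D8 than in D3 (limma, adjusted p = 0.000768). Of 3 plasma cell markers Derl3 was detected, at 20.1 to 21.4 in D8, where no array detected it, against 43.3 to 50.7 in D3, and it was called lower (adjusted p = 5.7e-06). The erythroid marker Hba-a1 had 20.9 to 43.5 in D8 and 19.3 to 86.0 in D3. The part of these shifts in the results was not tested, and in sorted pools fewer cells of a type and less RNA per cell cannot be told apart.

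D8 cells had higher RNA levels than D3 cells for 19 of the 41 proteasome genes and a lower level for 1. Among all 9566 genes with a detected probe, 16.7% were higher and 18.1% lower in the same comparison. With the experiment as a block, 21 of the 41 were higher (51.2%) and 1 was lower (2.44%), beside 20.4% and 22.0% of all genes. The median log2 change of the 41 genes was 0.30 (from -0.43 to 0.83), beside 0.00 for all genes, and 34 of the 41 changes were positive. At the level of probes, 31 of 68 members were higher and 2 lower, where 15.4% and 16.8% of all probes were. Over all 41 genes, the D8 arrays lay entirely above the D3 arrays for 24 and entirely below for 2, beside 22.7% and 24.1% of all genes. The higher genes lay in the beta ring, the ATPase ring and the lid for the most part, while the 3 immunoproteasome subunits and the 6 assembly chaperones held no called gene. The median difference of the lid genes from their D3 means was 0.52, 0.63 and 0.38 on the D8 arrays of experiments 1, 2 and 3. It was 0.48, 0.48 and 0.27 for the ATPase ring, 0.43, 0.44 and 0.25 for the beta ring, and 0.32, 0.30 and 0.13 for the alpha ring. The third D8 array was thus the lowest of the 3 in these roles, and the reason was not tested. The count of 20 called genes fell to 13 without the second D3 array and to 13 without the second D8 array. The shares of all genes called in these fits, which have fewer arrays for every gene, are not given here.

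**Figure D1:**
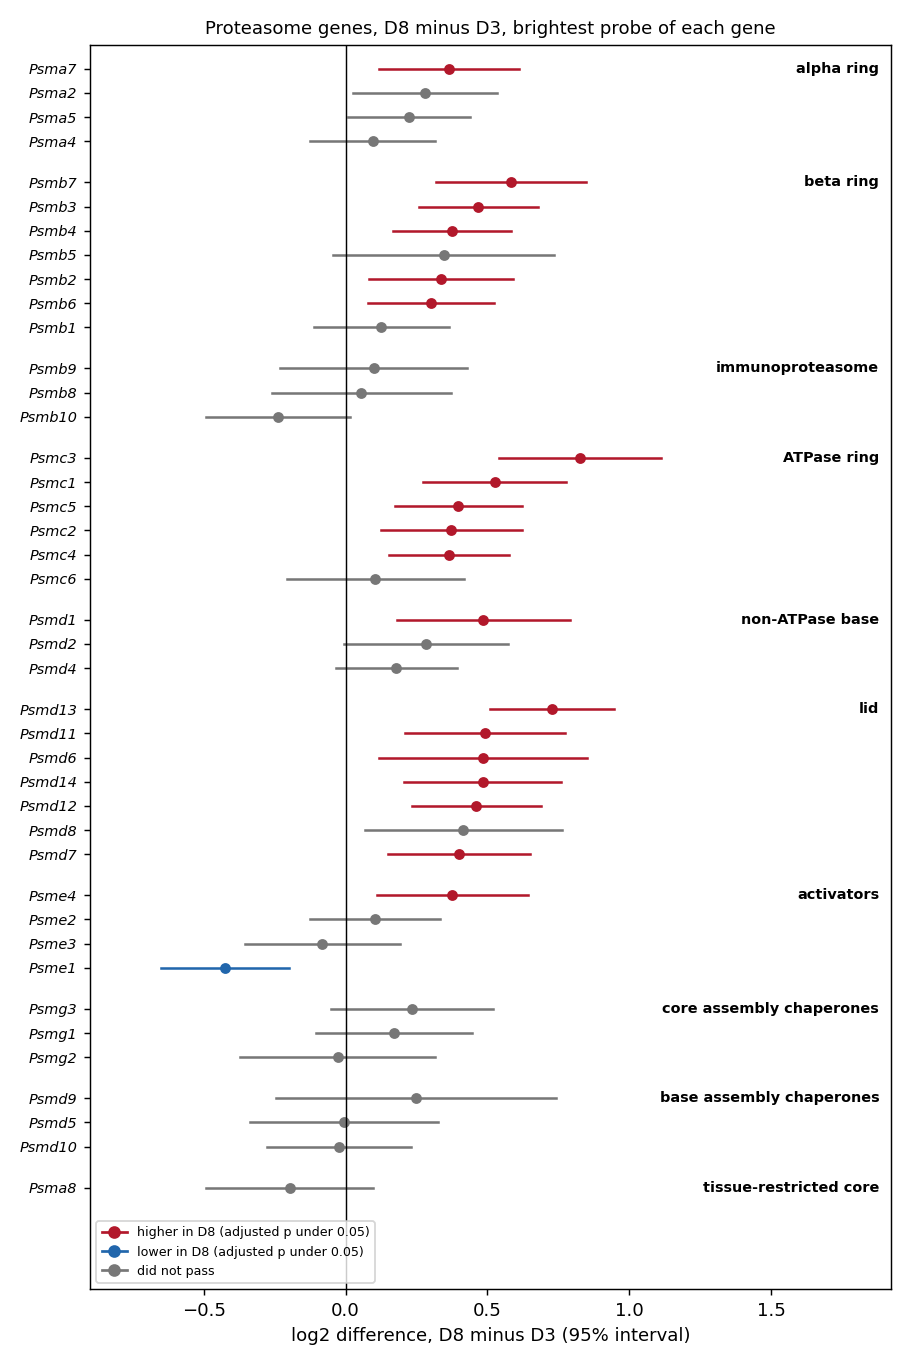
Each point is the log2 change (D8 minus D3) of the brightest probe of 1 proteasome gene, with its 95% confidence interval from limma (n = 3 arrays per division), grouped by role. Red points were higher and blue points lower in D8 at an adjusted p under 0.05, and grey points did not pass. Lid genes lie between 0.40 and 0.73, and Psme1 at -0.43 is the only called gene below 0.

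The means of 16 of the 41 proteasome genes (39%) stood in increasing order over D3, D4, D6 and D8, beside 16.7% of all genes. Decreasing order was found for 1 of the 41 (2.44%), beside 18.6% of all genes. These shares are descriptions of means and carry no test.

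The alpha ring was measured by 4 genes, with a median change of 0.25 in D8 over D3 and 1 called. Psma7, an alpha subunit, had log2 intensities of 11.13, 10.71 and 10.87 in D3, 11.08, 11.11 and 11.12 in D4, 11.12, 11.13 and 11.05 in D6, and 11.31, 11.31 and 11.19 in D8. All D8 arrays were above all D3 arrays, with a difference of 0.36 ± 0.12 (SE; adjusted p = 0.0256). The call was lost without the second or the third D3 array or the first or second D8 array (adjusted p from 0.0702 to 0.12). Psma2 differed by 0.28 ± 0.12, which missed the threshold (adjusted p = 0.0887) and passed it when the experiment number was kept as a block (adjusted p = 0.042) or the third D8 array was left out (adjusted p = 0.0389). Psma4 showed the smallest difference of the ring, 0.10 ± 0.10. Psma8, the alpha subunit of germ cell proteasomes, was detected on 4 of 12 arrays, 3 of them D6, and its difference was -0.20 ± 0.14 (adjusted p = 0.304).

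In the constitutive beta ring 5 of 7 genes were higher in D8 than in D3, with a median of 0.35. Psmb7, the subunit with trypsin-like activity, had log2 intensities of 10.94, 11.01 and 10.84 in D3, 11.17, 11.13 and 11.08 in D4, 11.12, 11.32 and 11.07 in D6, and 11.59, 11.69 and 11.27 in D8. The D8 arrays were all above those of D3 and D4, and the lowest of them came from experiment 3. The D8 level was 1.50-fold that of D3 (log2 0.58 ± 0.12, 95% interval 0.32 to 0.85, adjusted p = 0.00225), and its 4 probes gave 0.56 to 0.75, all called. Psmb3, a structural beta subunit without a proteolytic site, had 11.72, 11.59 and 11.64 in D3, 11.80, 11.71 and 11.84 in D4, 11.90, 11.88 and 11.89 in D6, and 12.10, 12.18 and 12.08 in D8. No array of any division overlapped those of D8, and D8 was 1.38-fold above D3 (log2 0.47 ± 0.10, adjusted p = 0.00205). Psmb6, the caspase-like subunit, had 10.72, 10.79 and 10.74 in D3, 10.94, 10.95 and 10.87 in D4, 10.78, 10.96 and 10.86 in D6, and 10.97, 11.19 and 11.01 in D8. Its difference was smaller, 0.30 ± 0.10 (1.23-fold, adjusted p = 0.0377), and its dimmer probe gave 0.39 ± 0.10 (adjusted p = 0.00948). The call of the brightest probe was lost without any 1 of the D3 arrays and without the second or the third D8 array (adjusted p from 0.0509 to 0.149). Psmb5, the chymotrypsin-like subunit, had 6.25, 6.43 and 6.35 in D3, 6.56, 6.33 and 6.58 in D4, 6.98, 6.15 and 6.28 in D6, and 6.94, 6.54 and 6.60 in D8. This probe was dim in every division, and its D6 arrays spread widely. The D8 minus D3 difference of 0.35 ± 0.18 missed the threshold (interval -0.05 to 0.74, adjusted p = 0.171). Psmb1 had the smallest difference of the ring, 0.13 ± 0.11 (adjusted p = 0.422).

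The 3 immunoproteasome subunits, which were counted apart from these, passed the threshold in none of the 5 comparisons made by limma. None had an unadjusted p under 0.05 in that fit, and 0 were called with the experiment as a block. Among all genes, 43.7% had such an unadjusted p in D8 against D3 and 17.2% in D6 against D4. In D4 against D3 it was 622 of 9566 genes. With the block, 42.3% of all genes were called in D8 against D3 and 8.33% in D6 against D4. Counts of 0 among only 3 genes cannot set these subunits apart from all genes. Psmb8, the replacement of Psmb5, had log2 intensities of 12.56, 12.46 and 12.92 in D3, 12.57, 12.65 and 12.94 in D4, 12.53, 12.71 and 12.83 in D6, and 12.68, 12.56 and 12.86 in D8. The 4 divisions overlapped, with means of 12.65 ± 0.24, 12.72 ± 0.19, 12.69 ± 0.15 and 12.70 ± 0.15 in that order (SD, n = 3 each), and D8 minus D3 was 0.06 ± 0.15 (95% interval -0.26 to 0.37, adjusted p = 0.812). The arrays of experiment 3 were the highest in each division. Psmb9, the replacement of Psmb6, had 6.90, 7.09 and 7.00 in D3, 6.97, 7.43 and 7.18 in D4, 6.82, 7.42 and 6.97 in D6, and 7.14, 7.13 and 7.01 in D8. Its divisions overlapped too, and D8 minus D3 was 0.10 ± 0.15 (interval -0.23 to 0.43, adjusted p = 0.674). Psmb10, the replacement of Psmb7, had 11.51, 11.48 and 11.23 in D3, 11.44, 11.19 and 11.13 in D4, 11.20, 11.09 and 11.03 in D6, and 11.20, 11.22 and 11.09 in D8. Its D8 arrays were all below its D3 arrays, by 0.31, 0.26 and 0.14 within experiments 1, 2 and 3, and the difference of -0.24 ± 0.12 missed the threshold (interval -0.49 to 0.02, adjusted p = 0.146, and 0.061 with the experiment as a block). Its dimmer probe gave -0.08 ± 0.11. The changes of the replaced and the replacing subunits stood at 0.35 and 0.06 for Psmb5 and Psmb8, 0.30 and 0.10 for Psmb6 and Psmb9, and 0.58 and -0.24 for Psmb7 and Psmb10. The difference between these changes was not tested, and the intervals do not show that the levels of the replacing subunits were equal in the divisions.

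**Figure D2:**
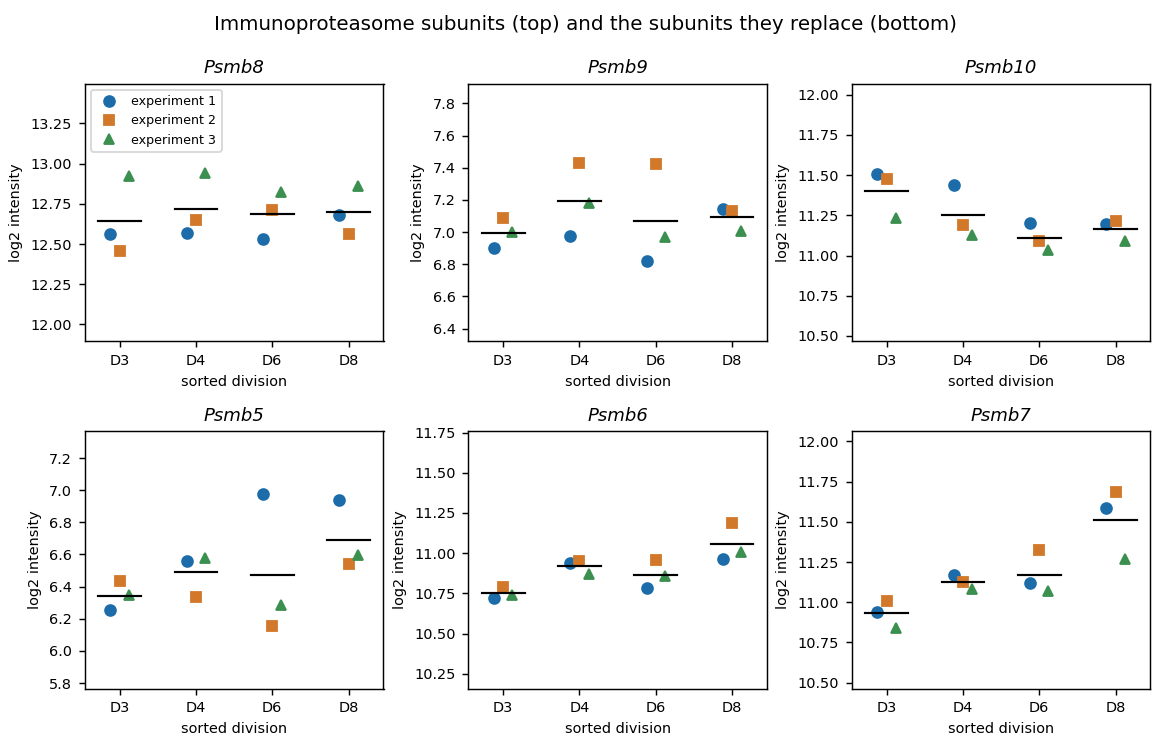
Each panel shows the log2 intensity of 1 catalytic subunit on the 12 arrays by division (points, 1 per experiment; bar, mean of n = 3), with the 3 immunoproteasome subunits (top) and the 3 constitutive subunits they replace (bottom). The D8 points of Psmb7 lie at 11.27 to 11.69, all above its D3 points, and the points of Psmb8 overlap across all 4 divisions.

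Psmb8 and Psmb9 lie beside the peptide transporter genes Tap1 and Tap2, in the order Psmb9, Tap1, Psmb8, Tap2 in RefSeq's annotation of GRCm38.p6. Proteasome genes are known targets of Nfe2l1, which binds the antioxidant response element. The letters TGANNNNGC of that element were searched on both strands from 250 bases before to 50 bases after each annotated start in RefSeq (GRCm38.p6, a C57BL/6J genome and not that of BALB/c). They were present in 20 of the 34 proteasome genes with a listed promoter (58.8%) and in 45.0% of all 27025 genes, in 9 of 15 genes higher in D8 than in D3 and in 11 of 18 genes not called. The 100 bases directly before the start are shown for 2 constitutive subunits, each followed by its replacement, and for Psmb3 and Psmd12, called subunits of the core and the lid. Capitals mark the match, and Psmb8 has none in this stretch. Of the third pair, Psmb7 had no listed promoter and Psmb10 held no match in the longer window. The stretches shown were chosen and not sampled, so their matches do not reflect the shares above, which are for the longer window. Psmb5 lies at chr14:54617996-54618095 on the minus strand, Psmb8 at chr17:34198095-34198194 on the plus strand, Psmb6 at chr11:70525257-70525356 on the plus strand, Psmb9 at chr17:34187331-34187430 on the minus strand, Psmb3 at chr11:97703334-97703433 on the plus strand and Psmd12 at chr11:107479428-107479527 on the plus strand.
Psmb5: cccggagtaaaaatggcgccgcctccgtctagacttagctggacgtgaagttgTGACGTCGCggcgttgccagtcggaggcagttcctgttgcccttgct
Psmb8: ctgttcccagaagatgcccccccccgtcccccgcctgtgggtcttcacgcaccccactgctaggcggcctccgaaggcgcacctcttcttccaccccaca
Psmb6: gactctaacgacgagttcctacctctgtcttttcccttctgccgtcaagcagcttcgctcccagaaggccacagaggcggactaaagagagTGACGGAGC
Psmb9: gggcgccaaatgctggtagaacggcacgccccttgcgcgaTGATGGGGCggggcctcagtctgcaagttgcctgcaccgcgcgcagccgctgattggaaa
Psmb3: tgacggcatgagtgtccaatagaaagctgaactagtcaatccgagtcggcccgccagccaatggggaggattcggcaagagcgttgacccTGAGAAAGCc
Psmd12: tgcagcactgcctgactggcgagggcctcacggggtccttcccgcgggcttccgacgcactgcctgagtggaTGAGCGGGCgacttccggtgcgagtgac

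A match in these letters describes the sequence and is not evidence of a bound site. The core of the interferon-stimulated response element, GAAA and again GAAA with 2 bases between them, was searched in the same way. It was present in 4 of the 34 genes (11.8%), namely Psmb3, Psmd4, Psmd9 and Psme1, and in 3.99% of all genes. The windows of Psmb8, Psmb9 and Psmb10 do not hold it.

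The ATPase ring, which threads the substrate into the core, was higher in D8 than in D3 for 5 of 6 genes, with a median of 0.39. Psmc3 had log2 intensities of 10.003, 9.91 and 9.93 in D3, 10.14, 10.02 and 10.09 in D4, 10.30, 10.32 and 10.13 in D6, and 10.98, 10.90 and 10.44 in D8. The D8 arrays lay above those of every other division, and the array of experiment 3 was the lowest of them. D8 was 1.77-fold above D3 (log2 0.83 ± 0.13, 95% interval 0.54 to 1.11, adjusted p = 0.000263), the largest change among the 41 genes, with 0.97, 0.99 and 0.52 within experiments 1, 2 and 3. Psmc1 had 8.75, 8.68 and 8.68 in D3, 8.64, 8.76 and 8.88 in D4, 8.80, 8.73 and 8.89 in D6, and 9.38, 9.30 and 9.01 in D8. Only its D8 arrays stood apart, at 0.53 ± 0.12 over D3 (adjusted p = 0.00323). Psmc6 was the gene nearest the detection rule, seen on 3 of 12 arrays, with log2 means of 4.64 in D8 and 4.54 in D3 and a difference of 0.11 ± 0.15; of the Psm probes left out, none was detected on more than 1 array.

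Of the 3 other base subunits, Psmd1, a scaffold of the base, was higher in D8 than in D3 by 0.49 ± 0.14 (adjusted p = 0.017), and its 3 probes gave 0.38 to 0.66. The call was lost without the second D3 array (adjusted p = 0.0763) and without the third D8 array (adjusted p = 0.0539). Psmd2, the other scaffold, differed by 0.28 ± 0.13 (adjusted p = 0.126). Psmd4, a ubiquitin receptor, differed by 0.18 ± 0.10 (adjusted p = 0.195). Both of these missed the threshold with positive differences.

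In the lid 6 of 7 genes were higher in D8 than in D3, with a median of 0.48 (from 0.40 to 0.73). Psmd13, a structural lid subunit, had log2 intensities of 11.37, 11.34 and 11.41 in D3, 11.53, 11.41 and 11.53 in D4, 11.76, 11.71 and 11.76 in D6, and 12.20, 12.14 and 11.96 in D8. The arrays of the 4 divisions did not overlap except that the lowest D4 array equalled the highest D3 array to 2 decimals. D8 was 1.65-fold above D3 (log2 0.73 ± 0.10, interval 0.51 to 0.95, adjusted p = 8.53e-05). Psmd11, a subunit that helps to join the lid to the core, had 6.99, 6.69 and 6.99 in D3, 7.13, 7.28 and 7.41 in D4, 7.36, 7.21 and 7.42 in D6, and 7.27, 7.60 and 7.27 in D8. Its D4 arrays were already above its D3 arrays, by 0.38 ± 0.13, which did not pass over all probes (adjusted p = 0.564), and D8 exceeded D3 by 0.49 ± 0.13 (adjusted p = 0.0104), a call lost without the second D3 array (adjusted p = 0.0552) and without the second D8 array (adjusted p = 0.0558). Psmd7, the partner of the deubiquitinating subunit, was higher by 0.40 ± 0.12 (adjusted p = 0.0172), a call lost without the third D3, the first D8 or the third D8 array (adjusted p from 0.0529 to 0.0769). Psmd12 was higher by 0.46 ± 0.11 with its brightest probe (adjusted p = 0.00388), while its other probe gave 0.02, and the mean of both probes gave 0.24 without a call (adjusted p = 0.138). The lid gene without a call was Psmd8, named after its values were seen, at 0.42 ± 0.16 (adjusted p = 0.0642, and 0.031 with the experiment as a block).

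**Figure D3:**
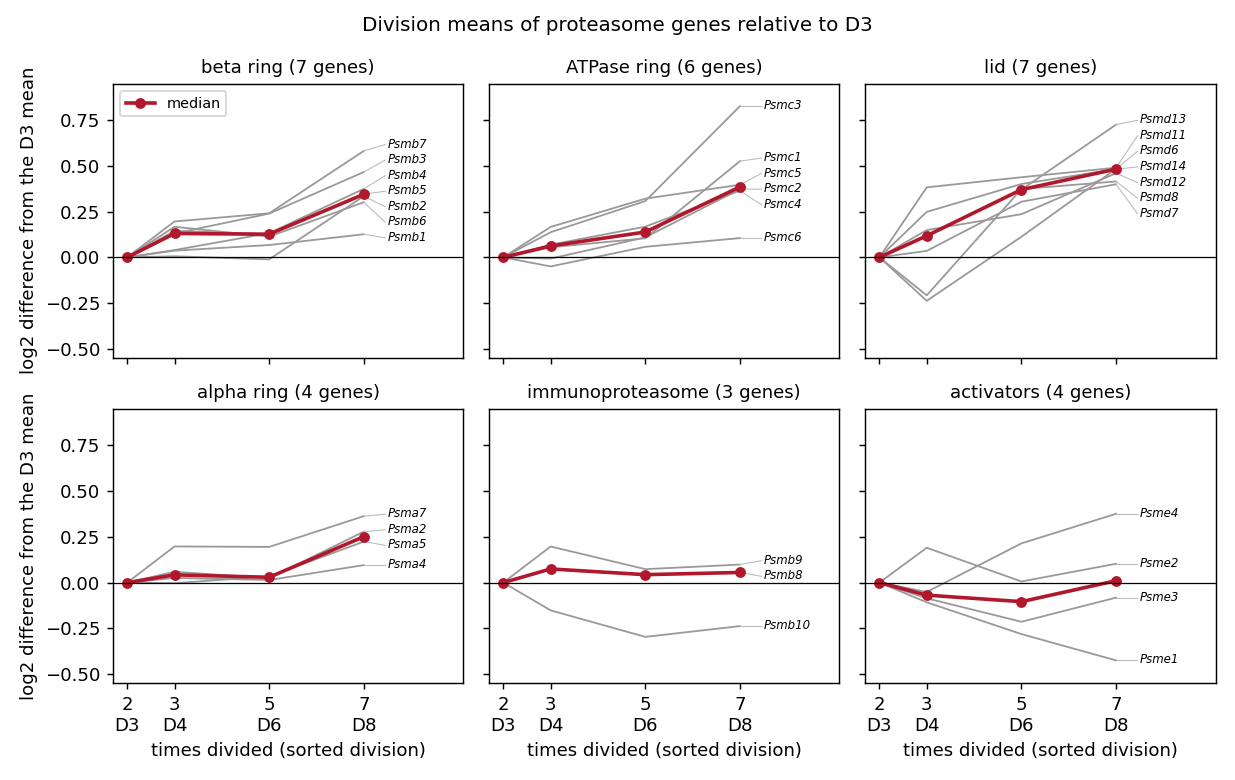
Each panel shows 1 role: grey lines give the division mean of each gene (n = 3 arrays) as a log2 difference from its D3 mean, the red line gives their median, and the horizontal axis is the number of divisions (2, 3, 5 and 7 for D3, D4, D6 and D8). The lid, ATPase ring and beta ring end at median D8 minus D3 changes of 0.48, 0.39 and 0.35, and the immunoproteasome at 0.06.

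The 4 activators did not move one way, with a median of 0.01. Psme1, the alpha chain of the interferon-inducible activator, had log2 intensities of 12.97, 12.88 and 12.75 in D3, 12.72, 12.79 and 12.76 in D4, 12.63, 12.62 and 12.51 in D6, and 12.35, 12.55 and 12.42 in D8. Its means stood in decreasing order, and the D8 arrays lay below those of D3 and D4. D8 was 0.74 times D3 (log2 -0.43 ± 0.11, interval -0.65 to -0.20, adjusted p = 0.00647), the other probe gave -0.34 ± 0.11 (adjusted p = 0.0255), and with median centring in place of background correction the change was -0.27 and the call was lost (adjusted p = 0.119). Psme2, the beta chain of the same activator, had 8.49, 8.25 and 8.37 in D3, 8.61, 8.46 and 8.61 in D4, 8.30, 8.46 and 8.36 in D6, and 8.51, 8.51 and 8.39 in D8. Its divisions overlapped, with a D8 minus D3 difference of 0.10 ± 0.11 (interval -0.13 to 0.33, adjusted p = 0.507). Psme3, which encodes a nuclear activator, differed by -0.08 ± 0.13 (interval -0.36 to 0.19, adjusted p = 0.673). Psme4, a large activator linked to histone breakdown in germ cells and after DNA damage, had 10.25, 10.21 and 10.39 in D3, 9.97, 10.35 and 10.37 in D4, 10.36, 10.55 and 10.58 in D6, and 10.63, 10.66 and 10.68 in D8. Its brightest probe was 1.30-fold higher in D8 than in D3 (log2 0.38 ± 0.12, adjusted p = 0.0305), a call lost without the first or second D3 array or any 1 of the D8 arrays (adjusted p from 0.0656 to 0.0948). The second Psme4 probe, detected on 4 arrays, gave -0.20 ± 0.11 (adjusted p = 0.184), and the mean of both gave 0.09 without a call (adjusted p = 0.529). Its probes thus differed in sign.

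The assembly chaperones, which build the core and the base and leave the finished particle, held 0 called genes of 6 by the brightest probe in D8 against D3 (limma, adjusted p). They also held 0 at an unadjusted p under 0.05 and 0 with the experiment as a block. Among all genes, 43.7% had such an unadjusted p and 42.3% were called with the block. Psmg3 and Psmg1, of the core chaperones, differed by 0.23 ± 0.13 (adjusted p = 0.206) and 0.17 ± 0.13. The 3 probes of Psmg2, the partner of Psmg1, spread from -0.27 to 0.32 in this comparison, and 1 of them was called lower in D8 than in D4 (-0.39 ± 0.13, adjusted p = 0.0359). Of the base chaperones, Psmd10 differed by -0.02 ± 0.12 and Psmd5 by -0.01 ± 0.15. Psmd9 differed by 0.25 ± 0.23, with 5.82, 5.68 and 4.68 on the D8 arrays, and without the D8 array of experiment 3 it differed by 0.61 with a call (adjusted p = 0.00861). Psmc3ip and Psme3ip1, which share the symbol pattern only, gave 0.77 ± 0.19 (adjusted p = 0.00551) and 0.01 ± 0.11; Psmc3ip encodes a meiotic recombination factor.

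Several detected probes were available for 19 of the 43 symbols. In D8 against D3 they had the same sign for 16 and different signs for 3 (Psmd10, Psmg2 and Psme4). All probes were called for 8 of the 19, some for 5 and none for 6. The 19 include Psme3ip1, which names no proteasome subunit. Among all detected probes, 15.4% were called higher and 16.8% lower in this comparison. The shares among all genes with several probes are not given here.

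In the comparison with D4, the division described as memory-prone, 13 of the 41 genes were higher in D8 and 1 was lower, where 13% and 13.7% of all genes were. The median change was 0.20 (from -0.32 to 0.72). The lid held 5 of the higher genes, the ATPase ring 4 and the beta ring 3. Psmc3 was higher in D8 than in D4 by 0.69 ± 0.13 (adjusted p = 0.00162), Psmd13 by 0.61 ± 0.10 (adjusted p = 0.000564), Psmb7 by 0.39 ± 0.12 (adjusted p = 0.0348) and Psmb3 by 0.34 ± 0.10 (adjusted p = 0.0215). Psmd6, a lid subunit named after its values were seen, had 5.88, 6.36 and 5.85 in D8, against 5.07, 5.54 and 5.31 in D4, and the largest change of this comparison (0.72 ± 0.17, adjusted p = 0.00673). Over D3 the change of Psmd6 was smaller, at 0.48. That call was kept in 6 of 12 fits with an array left out and in 5 of 8 other settings. Psme1 was the lower gene, at -0.32 ± 0.11 (adjusted p = 0.041). With each array left out in turn, the call was kept in 12 of 12 fits for Psmc3, Psmd13 and Psmd6, in 9 for Psmb3, in 7 for Psmb7 and in 4 for Psme1, whose adjusted p lay between 0.0408 and 0.15. Psmb8 and Psmb9 stood at -0.02 (interval -0.33 to 0.30) and -0.10 (interval -0.43 to 0.23). The count of calls changed when single arrays were left out: it was 3 without the first D8 array, 7 without the second D8 array, 6 without the second D4 array, and 9 without the first or the third D4 array. Such fits have fewer arrays for every gene. The shares of all genes called in them are not given here, so the falls cannot be set beside those of all genes.

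Between D6 and D8, 2 proteasome genes were higher in D8 and 0 lower, where 3.95% of all genes were called in each direction. The median of the 41 genes was 0.13 (from -0.29 to 0.52), and 12 were higher (29.3%) and 1 lower (2.44%) at an unadjusted p under 0.05, beside 11.7% and 10.9% of all genes. The lower gene was Psma8, which was detected on all 3 D6 arrays and on no D8 array and so passed the filter through the division where it was high; without it 0 genes were lower and the range began at -0.14. The called genes were Psmc3 (0.52 ± 0.13, adjusted p = 0.0309) and Psmc1 (0.42 ± 0.12, adjusted p = 0.0455), and Psmd13 stood just outside at 0.36 ± 0.10 (adjusted p = 0.0513). With the experiment as a block 6 genes were higher, where 7.73% of all genes were higher and 7.33% lower. Without the third D8 array 6 were called higher as well, where 4.93% of all genes were higher, while the count was 0 without any 1 of the D6 arrays or without the first or the second D8 array, and 1 without any 1 of the D3 arrays or without the second D4 array.

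Between D4 and D6 no proteasome gene was called by limma, where 3.56% of all genes were. The median was 0.06 (from -0.18 to 0.58), and 6 genes (14.6%) had an unadjusted p under 0.05, all higher in D6, where 8.91% of all genes were higher and 8.25% lower at that p, 17.2% together. Psma8 was 1 of the 6, detected on all 3 D6 arrays and on no D4 array, and 5 genes were left without it. The top of these, Psmd8, had 6.62, 6.81 and 6.68 in D6, against 6.00, 6.44 and 5.93 in D4, a difference of 0.58 ± 0.16 that missed the threshold (adjusted p = 0.0721) and passed it with the experiment as a block (adjusted p = 0.024), where 8.33% of all genes were called. The count was 1 without the second D4 array and without the third D8 array.

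Between D3 and D4 no proteasome gene and 0% of all genes were called by limma. With the experiment as a block, 0 proteasome genes and 30 of all genes were called (23 higher and 7 lower in D4). At an unadjusted p under 0.05, 1 proteasome gene (Psmd11, higher in D4) and 622 of all 9566 genes passed. The median of the 41 changes was 0.06 (from -0.24 to 0.38).

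The genes that act with the proteasome, in D8 against D3, stand beside the 16.7% of all genes called higher and the 18.1% called lower. Among 7 detected partners of the proteasome outside the Psm symbols, 2 were higher in D8 than in D3 and 0 lower, with a median of 0.26. Pomp, the maturation chaperone of the core, had log2 intensities of 12.40, 12.25 and 12.39 in D3, 12.42, 12.40 and 12.46 in D4, 12.57, 12.69 and 12.61 in D6, and 13.07, 13.002 and 13.10 in D8. The D8 arrays stood well above all others, at 1.63-fold the D3 level (log2 0.71 ± 0.10, adjusted p = 7.83e-05), and Pomp was also higher in D8 than in D6 (0.43, adjusted p = 0.0174). Uchl5, a deubiquitinase bound to the cap, was higher in D8 than in D3 by 0.43 ± 0.11 (adjusted p = 0.0086).

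Of 3 regulators, 0 were higher and 1 was lower, and Vcp, the segregase that delivers substrates, was called higher with the experiment as a block only (0.28 ± 0.11, adjusted p = 0.0605, and 0.0438 with the block). Nfe2l1, the transcription factor known to raise proteasome genes when the proteasome is inhibited, had 9.46, 9.51 and 9.32 in D3, 9.18, 9.51 and 9.15 in D4, 9.18, 9.27 and 9.17 in D6, and 9.01, 8.96 and 8.96 in D8. Its RNA was lowest on the D8 arrays, with a D8 minus D3 difference of -0.45 ± 0.12 (adjusted p = 0.008), while its protein was not measured. The 5 detected ubiquitin and shuttle genes gave 0 calls by limma, with a median of 0.24. Ubqln4, named after its values were seen, was lower in D8 than in D3 (-0.40 ± 0.15, limma, adjusted p = 0.0539, and 0.0114 with the block). The changes of the other 4 were positive. Ubqln4 was the 1 gene with an unadjusted p under 0.05 and the 1 called with the experiment as a block. Among all genes, 43.7% had such an unadjusted p and 42.3% were called with the block.

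Of 10 detected genes of class I antigen processing, 1 was higher in D8 than in D3 and 3 were lower, with a median of -0.08, beside 16.7% and 18.1% of all genes. H2-K1, a class I heavy chain, had 11.52, 11.91 and 11.85 in D3, 11.30, 11.88 and 11.78 in D4, 10.99, 11.19 and 11.43 in D6, and 10.04, 10.28 and 10.83 in D8. The brightest probe in D8 was 0.38 times D3 (log2 -1.38 ± 0.20, adjusted p = 0.000125), and the mean over its probes gave -0.85 without a call (adjusted p = 0.0546). Nlrc5, the class I transactivator, was lower, with a difference of -0.64 ± 0.15 (adjusted p = 0.00428). Calr, a chaperone of the endoplasmic reticulum, was the higher gene, at 0.53 ± 0.16 (adjusted p = 0.0222), and missed the threshold with median centring, with the authors' processed values and with no filter on dim probes, and also without any 1 of the D3 arrays or the second D8 array (adjusted p from 0.0514 to 0.0901). Tap1 and Tap2, the neighbours of Psmb8 and Psmb9, differed by 0.13 ± 0.13 (adjusted p = 0.511) and 0.06 ± 0.14.

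Of 6 detected interferon gamma response genes, 1 was higher and 2 were lower, with a median of -0.10, beside the same shares of all genes. Irf1, a transcription factor that drives immunoproteasome genes, had 12.64, 12.55 and 12.76 in D3, 12.55, 12.42 and 12.54 in D4, 12.14, 12.20 and 12.27 in D6, and 11.75, 11.87 and 12.03 in D8. The D8 arrays were below all others, and D8 differed from D3 by -0.77 ± 0.11 (adjusted p = 0.000105). Gbp2, an interferon-induced GTPase, was lower, with a difference of -1.10 ± 0.15 (adjusted p = 8.08e-05), and the related Gbp3 was higher by 0.51 ± 0.15 (adjusted p = 0.0167), which missed the threshold without the third D3 array (0.45, adjusted p = 0.0646) and without the second D8 array (0.33, adjusted p = 0.0847). The called genes of this list thus moved both ways.

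**Figure D4:**
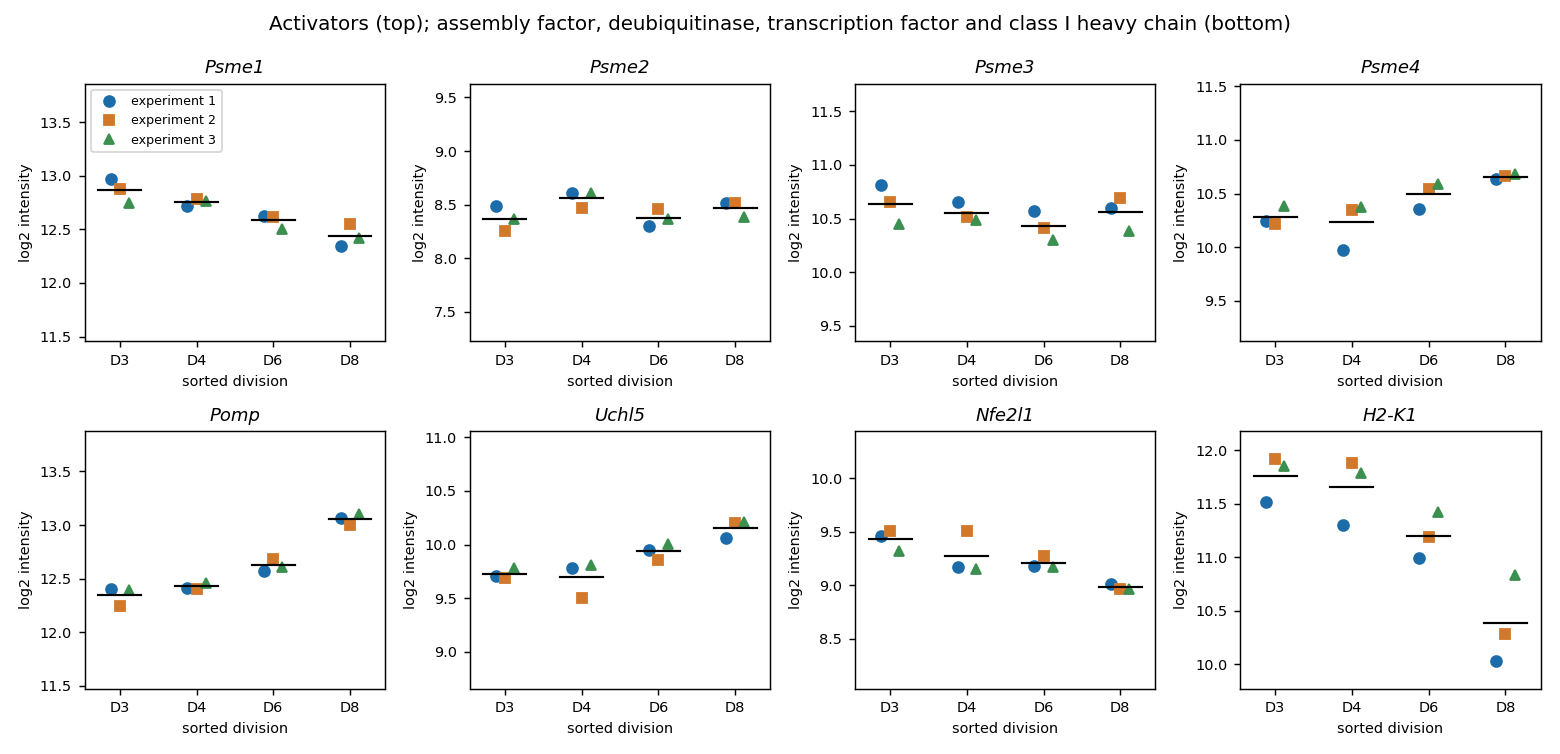
Points give log2 intensity on each of the 12 arrays by division (1 point per experiment; bar, mean of n = 3) for the 4 activators (top) and for Pomp, Uchl5, Nfe2l1 and H2-K1 (bottom). The D8 points of Pomp lie at 13.002 to 13.10, above all others, and those of Psme1 at 12.35 to 12.55, below all its D3 points.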

How the data were processed

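RNA of 12 samples was hybridised to Illumina bead arrays. The authors deposited linear probe intensity values from BeadStudio 2.0, per the submitters' processing notes, with a detection p-value for each, per the file headers, and a second deposited table of background-subtracted intensity values made by a method not given in the sources used here. The non-normalized intensities were background-corrected and normalized by neqc (limma 3.58.1, R 4.3.3; 936 implied negative controls, offset 16, quantile, log2). Probes were named through the platform annotation (1 symbol for 34885 probes, several for 18, none for 10378). All 17829 probes detected on 3 or more arrays entered 1 limma model of 4 division means (8 residual degrees of freedom), adjusted by Benjamini-Hochberg over all of them and called under 0.05. The brightest detected probe stood for a gene. The 3 arrays per division limit the precision.

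The labels say that the replicate number is the experiment. Deviations from the division means correlated at 0.156 to 0.403 for 18 pairs of the same experiment and at -0.355 to 0.073 for 36 other pairs, so the numbers pair the samples, and a fit with the experiment as a block was an alternative.

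Named genes were the catalytic pairs, all activators, the extremes of each role by D8 minus D3, members called lower or at an early step, members with probes of opposite sign and a call, and the leading called genes of each companion list. The members and lists were chosen with earlier results of these data known. Scripts were tested on simulated data. Protein sequences were not used here, nor coordinates other than those of the RefSeq promoters, since no build was given for the arrays.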

Additional observations from a re-analysis of the deposited data

How the results depend on the processing

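The 8 alternatives beside the leaving out of arrays gave 18 to 22 called proteasome genes in D8 against D3 (20 as reported) and 14 to 17 in D8 against D4 (14 as reported). In D8 against D6, with 2 as reported, 4 were called with median centring, 5 with the authors' processed values, 5 with an offset of 50, 5 with the mean of a gene's probes and 6 with the replicate block (2 shared); in D6 against D4, with 0 as reported, 1 was called with the replicate block. Leaving out each array in turn gave 0 in D4 against D3, 0 to 1 in D6 against D4, 0 to 6 in D8 against D6, 3 to 13 in D8 against D4 and 13 to 20 in D8 against D3. Shares of all genes in these fits are not given here, except for D8 against D6 without the third D8 array. Of the 20 genes called in D8 against D3, 11 kept their call without each array, 16 in all other settings and 9 in both; of 14 in D8 against D4 the counts were 3, 10 and 3, and of 2 in D8 against D6 they were 0, 0 and 0. Values near 0 changed sign: Psmd10 (0.013 with median centring, -0.092 to 0.072 without single arrays), Psmd5 (0.0021 with the authors' values, -0.15 to 0.10), Psmg2 (0.0094 with the mean of probes, -0.19 to 0.12), Psme3ip1 (-0.0039 with median centring, -0.019 to 0.039), Psmb8 (-0.040 to 0.19) and Psme3 (-0.18 to 0.0056). Psma2 passed with median centring, the offset of 50 and the replicate block, and Psmd4 with median centring and the authors' values. Over all genes, D8 against D6 gave 378 higher and 378 lower calls, and 407 higher and 200 lower with median centring. With the authors' processed values 293 were higher and 341 lower, and with the replicate block 739 and 701. In D8 against D3, 1594 were higher and 1727 lower as reported, 1303 and 1689 with median centring, and 1519 and 1616 with the authors' values. Counts over all genes with the offset of 50 and with the mean of probes are not given here. The causes were not tested. Probes near background, such as those of Psmc6, Psma8 and Psmd9, hold the least information.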
